A study of Mus musculus with 6 samples.

Results

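The 37 genes described here act in homologous recombination and in the Fanconi anaemia pathway. They were chosen by gene symbol from a list of names, and all 37 were found among the 15553 genes of the deposited table. RNA was sequenced from blood stem and progenitor cells sorted from bone marrow of C57BL/6 mice aged 6 to 8 weeks, with 3 libraries of genotype Yy1f/f;Mx1-Cre (Yy1-KO) and 3 of genotype Mx1-Cre (WT). Both groups therefore carried Mx1-Cre, a Cre recombinase under an interferon-inducible promoter that is also active outside the blood, and only Yy1-KO carried Yy1 alleles flanked by loxP sites. The sort took lineage-negative, Sca1-positive, c-Kit-positive cells. The source field names CD150-positive cells, while the protocol names CD48-negative cells both with and without CD150, so the gate of a library is uncertain. The study asked what loss of YY1, a DNA-binding protein with activating and Polycomb-linked repressive roles, does to resting stem cells. The labels do not say whether each library came from its own mouse, so p-values measure the spread between these libraries, which may be technical.

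Homologous recombination repairs a broken chromosome by copying the sister chromatid. The broken end is resected to single-stranded DNA, which replication protein A coats, and BRCA2 then prepares the strand to invade the sister. The Fanconi pathway handles links between the strands of DNA: a core complex ubiquitinates the FANCD2 and FANCI proteins, which recruits nucleases and the recombination proteins. Inherited loss of this pathway in people causes failure of the bone marrow, and many of its genes are transcribed mainly in cells that replicate their DNA.

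Certain libraries stood apart. Levels are given in RPKM, reads scaled by gene length and by library size. WT replicate 3 had 1991 genes listed at 0, against 373 to 1099 in the other libraries, and its score on the first principal component was 114, against -26.7 to -18.4. Among the WT libraries it was also the lowest for 23 of the 37 genes, a share not computed for all genes tested. Yy1, the targeted gene, stood at 36.2, 16.6 and 28.5 RPKM in Yy1-KO replicates 1 to 3, against 31.6, 42.3 and 52.1 RPKM in WT. The library labelled Yy1-KO replicate 1 thus lay within the WT range of Yy1. The labels do not say which part of the gene was deleted, and reads of an undeleted part would count. Library sizes implied by the deposited values were 17402756 to 19535461 in Yy1-KO and 12920190 to 16112105 in WT. Reads recovered from those values summed to 19473176 to 21757041 over listed genes in Yy1-KO and 15102983 to 18460012 in WT. In every library this sum exceeded the implied size, so the implied sizes cannot be taken as totals of reads. The reason was not tested. The stem cell markers chosen for the check were all in the table, 13 of 13, with summed levels of 448 to 486 RPKM in Yy1-KO and 617 to 704 RPKM in WT, and their part in the results was not tested. Kit, whose protein is part of the gate, stood at 78.8 ± 3.27 RPKM in Yy1-KO and 126 ± 14.1 RPKM in WT (SD, n = 3 each; every later mean is likewise ± SD over 3 libraries).

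Most of the 37 genes had more RNA in Yy1-KO than in WT libraries, though limma called none of them after adjustment. Differences are log2 fold changes of Yy1-KO over WT on the log2(RPKM + 0.5) scale, fitted with limma over 13179 genes. All 37 were among these. The median log2 fold change of the 37 genes was 0.64, against 0.02 for all genes tested, and 28 of the 37 lay above 0 (75.7%), against 51.9% of all genes tested. At an unadjusted limma p under 0.05, 8 of the 37 were higher (21.6%), against a background of 4.73%, and 0 were lower, against 3.06%. In 14 of the 37 every Yy1-KO library lay above every WT library (37.8%), against 7.63% of all genes tested, and in 1, Fancf, every Yy1-KO library lay below, against 6.87%. With Benjamini-Hochberg adjustment limma called 0 of 13179 genes (0%) at 0.05, with 1027 at an unadjusted p under 0.05, and limma-voom on recovered reads called 8 of 13114 (0.061%), 0 of them among the 37, where it found 14 higher at an unadjusted p under 0.05, against 4.4%, and 0 lower, against 3.43%. In the authors' deposited table, 24 of 15553 genes (0.154%) had an adjusted p under 0.05, and 1 of these, Neil3, belongs to the 37.

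**Figure D1:**
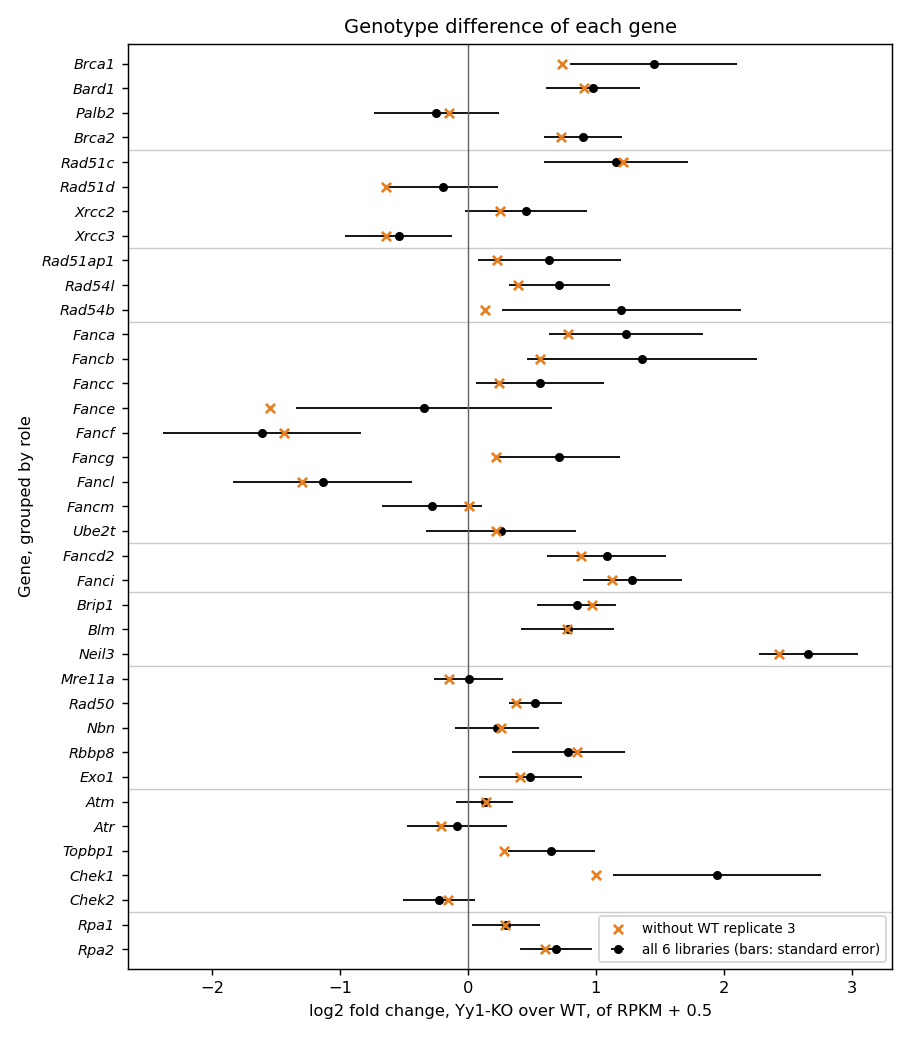
Log2 fold change of RPKM + 0.5, Yy1-KO over WT (horizontal axis), for each of the 37 genes in order of role (vertical axis). Black points and bars are the limma estimate from all 6 libraries and its standard error, and orange crosses the estimate without WT replicate 3. Neil3 stands farthest right at 2.66 and Fancf farthest left at -1.61.

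The counts depend on single libraries. Without WT replicate 3 the median log2 fold change of the 37 genes was 0.29, and 4 genes were higher at an unadjusted p under 0.05 (10.8%), against 5.32% of genes tested, while 28 lay above 0 (background 50.4%) and 14 had Yy1-KO above WT without overlap (background 13.3%). Those 4 were Brca2, Fanci, Brip1 and Neil3. Without the library labelled Yy1-KO replicate 1 the median was 0.58, and 3 genes, Brca1, Brip1 and Neil3, were higher (8.11%), against 2.87%, 27 lay above 0 (background 52.8%) and 15 did not overlap (background 11.4%). Without both libraries, a choice made after seeing the data, the median was 0.30, 3 genes were higher, against 4.12%, 27 lay above 0 (background 50.9%) and 15 did not overlap (background 19.3%). The number was 4 without Yy1-KO replicate 2 (10.8%, against 3.09%), 6 without Yy1-KO replicate 3 (16.2%, against 2.69%), 8 without WT replicate 1 (21.6%, against 4.82%) and 9 without WT replicate 2 (24.3%, against 5.92%). Lower at an unadjusted p under 0.05 were Fancf without Yy1-KO replicate 2 (background 2.92%), Fancl without Yy1-KO replicate 3 (2.68%), Fance without WT replicate 3 (3.19%) and again Fance without Yy1-KO replicate 1 and WT replicate 3 (2.83%), and 0 genes without Yy1-KO replicate 1 (2.36%), WT replicate 1 (2.67%) or WT replicate 2 (3.33%). Neil3 was the 1 gene at an unadjusted p under 0.05 in each of these fits. Of the 37 log2 fold changes, 26 stayed above 0 and 4 stayed below 0 whichever single library was left out.

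Neil3 encodes a DNA glycosylase that cuts an interstrand crosslink free where replication forks converge on it. The gene (ENSMUSG00000039396, chromosome 8: 53586867 to 53639065, GRCm38) stood at 11.2, 15.2 and 18.1 RPKM in Yy1-KO, against 2.28, 2.30 and 1.23 RPKM in WT. Every Yy1-KO library was above every WT library, and the mean in Yy1-KO was 7.66 times that in WT. Its log2 fold change was 2.66 (standard error 0.38), larger than that of 99.5% of genes tested, with an unadjusted p of 0.000158 and a limma adjusted p of 0.205. Limma-voom gave an adjusted p of 0.098. Leaving out each library in turn gave 2.43 to 2.84. In the authors' deposited table the log2 fold change was 2.98 at an adjusted p of 0.0384.

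The FANCD2 and FANCI proteins form the clamp that the Fanconi core complex ubiquitinates, and both genes had more RNA in each Yy1-KO library than in any WT library. Fanci (ENSMUSG00000039187, chromosome 7: 79391929 to 79450264) stood at 13, 6.59 and 9.06 RPKM in Yy1-KO, against 3.81, 4.10 and 2.69 RPKM in WT. The log2 fold change of Fanci was 1.28 (standard error 0.39), at an unadjusted p of 0.0112 and a limma adjusted p of 0.535. Reads that fall on the 921 bases it shares with Polg on the opposite strand, 16.0% of its exonic length, could belong to either gene, and the sources used here do not give the strand setting of the counting. Fancd2 (chromosome 6: 113531682 to 113597017) stood at 4.51, 5.26 and 4.67 RPKM in Yy1-KO, which were close together, against 3.42, 1.6 and 1.40 RPKM in WT. Its log2 fold change was 1.08 (standard error 0.47), and its unadjusted p of 0.0502 lay just outside 0.05.

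**Figure D2:**
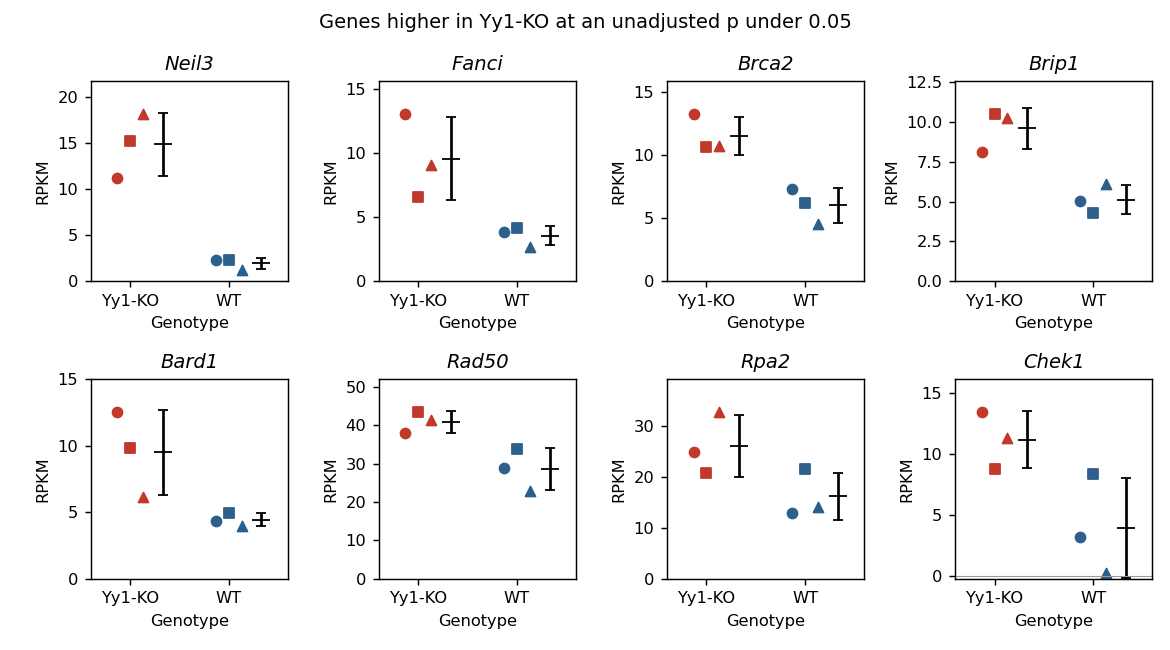
RPKM (vertical axes) in each library of the 8 genes that were higher in Yy1-KO at an unadjusted limma p under 0.05, with Yy1-KO left of WT. Circles, squares and triangles are replicates 1, 2 and 3, and black marks are mean ± SD over 3 libraries. Rpa2 is the only panel in which the genotypes overlap, and in Chek1 the WT libraries spread over 0.306 to 8.37 RPKM.

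The helicase genes Brip1 and Blm also had higher means in Yy1-KO. Brip1 encodes the helicase FANCJ, which binds BRCA1. It (chromosome 11: 86058138 to 86201193) stood at 8.13, 10.5 and 10.2 RPKM in Yy1-KO, against 5.04, 4.27 and 6.08 RPKM in WT, with no overlap. Its log2 fold change was 0.85 (standard error 0.31), at a limma adjusted p of 0.589, and it was 0.97 without WT replicate 3. Blm, the RecQ helicase gene that is mutated in Bloom syndrome, stood at 19.8, 13.1 and 8.17 RPKM in Yy1-KO, against 8.33, 6.41 and 7.30 RPKM in WT. Yy1-KO replicate 3 overlapped the WT libraries, and the log2 fold change of Blm was 0.78 with a 95% confidence interval of -0.07 to 1.63. It was 0.48 without Yy1-KO replicate 1, the highest library.

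Of the 4 genes around BRCA1 and BRCA2, 3 had higher means in Yy1-KO. Brca2, whose product readies the resected strand for invasion (ENSMUSG00000041147, chromosome 5: 150522630 to 150570329), stood at 13.2, 10.6 and 10.7 RPKM in Yy1-KO, against 7.27, 6.17 and 4.54 RPKM in WT. The genotypes did not overlap, and the log2 fold change was 0.90 (standard error 0.30), at an unadjusted p of 0.0195 and a limma adjusted p of 0.568. BRCA1 and BARD1 form a ubiquitin ligase that promotes resection and brings PALB2 to the break. Bard1 (chromosome 1: 71027498 to 71103146) stood at 12.5, 9.82 and 6.17 RPKM in Yy1-KO, against 4.35, 4.94 and 3.97 RPKM in WT, and its log2 fold change was 0.98 (standard error 0.37), at a limma adjusted p of 0.605. Brca1 stood at 6.28, 11.7 and 14.7 RPKM in Yy1-KO, against 6.51, 5.49 and 0.967 RPKM in WT. Yy1-KO replicate 1 lay between WT replicates 1 and 2 for Brca1, WT replicate 3 lay far below the rest, and the log2 fold change of 1.45 was 0.74 without that WT library. Palb2, the gene of the protein that links BRCA1 to BRCA2, stood at 2.88, 3.76 and 2.60 RPKM in Yy1-KO, against 2.03, 5.64 and 4.34 RPKM in WT. Its libraries overlapped, with a log2 fold change of -0.25 and a 95% confidence interval of -1.38 to 0.89.

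The starts of genes that move with the cell cycle often carry sites of E2F factors, of NF-Y (the CCAAT box) or of the complex that binds the cell cycle genes homology region (CHR). RefSeq promoters of GRCm38.p6 were matched by symbol for 29 of the 37 genes, all but Rad51d, Xrcc2, Rad54b, Fancd2, Rad50, Nbn, Rbbp8 and Exo1. The 250 bases before the start were searched on both strands for the letters GCGGGAA and TTTGGCG (E2F), TTTGAA (CHR), CCAAT (NF-Y), and AAGATGGCG and ATGGCGGC (YY1). The E2F spellings can overlap each other, as can those of YY1. Printed here, 5′ to 3′ on the strand of the gene and with matches in capitals, are Neil3 as the gene with the largest log2 fold change and, of the 8 genes above, those 4 whose promoter was matched and holds any of the letters. They are chr8:53639066-53639315 (minus strand) for Neil3, chr5:150522371-150522620 (plus) for Brca2, chr1:71102973-71103222 (minus) for Bard1, chr11:86201194-86201443 (minus) for Brip1 and chr4:132768110-132768359 (plus) for Rpa2.
Neil3: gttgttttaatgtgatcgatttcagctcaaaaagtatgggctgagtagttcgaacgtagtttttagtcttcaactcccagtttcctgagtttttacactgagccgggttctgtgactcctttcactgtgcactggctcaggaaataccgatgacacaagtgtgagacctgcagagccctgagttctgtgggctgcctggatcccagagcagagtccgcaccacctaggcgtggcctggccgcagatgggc
Brca2: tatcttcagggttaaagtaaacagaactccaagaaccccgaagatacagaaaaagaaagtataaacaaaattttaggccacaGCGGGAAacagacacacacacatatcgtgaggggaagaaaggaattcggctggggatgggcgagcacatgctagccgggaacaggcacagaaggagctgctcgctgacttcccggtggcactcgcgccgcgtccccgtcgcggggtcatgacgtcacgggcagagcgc
Bard1: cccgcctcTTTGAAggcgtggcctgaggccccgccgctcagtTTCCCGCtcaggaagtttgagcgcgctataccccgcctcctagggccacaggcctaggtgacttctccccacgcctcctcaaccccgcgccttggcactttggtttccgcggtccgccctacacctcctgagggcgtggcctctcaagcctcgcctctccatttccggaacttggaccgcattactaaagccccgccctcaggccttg
Brip1: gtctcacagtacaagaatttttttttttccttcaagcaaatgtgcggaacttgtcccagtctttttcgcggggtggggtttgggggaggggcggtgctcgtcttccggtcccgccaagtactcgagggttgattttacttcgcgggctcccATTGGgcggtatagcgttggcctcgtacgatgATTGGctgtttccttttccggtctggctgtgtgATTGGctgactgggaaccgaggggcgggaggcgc
Rpa2: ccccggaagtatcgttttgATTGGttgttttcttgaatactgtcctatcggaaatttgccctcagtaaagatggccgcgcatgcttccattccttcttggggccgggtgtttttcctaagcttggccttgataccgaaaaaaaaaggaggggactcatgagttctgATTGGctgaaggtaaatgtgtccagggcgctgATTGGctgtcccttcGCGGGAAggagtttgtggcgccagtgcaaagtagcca
Brca2 holds GCGGGAA 168 bases before its start, and Bard1 holds its reverse complement at 208 bases and TTTGAA at 242. Rpa2 holds GCGGGAA at 37 bases and the reverse complement of CCAAT at 52, 84 and 231, and Brip1 holds that reverse complement at 34, 67 and 99. Neil3 holds none of the letters in this window, and neither do Fanci and Chek1, whose matched promoters are not printed.

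Over the 29 matched genes an E2F spelling was found in 9 (31.0%), against 10.4% of the 9641 genes of the deposited table with a promoter in the reference and 5.67% of all 27025 genes there. CCAAT was found in 18 (62.1%), against 40.7% and 37.5%. TTTGAA was found in 1 (3.45%), against 12.8% and 18.3%, and a YY1 spelling in 0, against 3.13% and 1.64%. The 9 with an E2F spelling were Bard1, Brca2, Chek2, Fancb, Fancg, Fancm, Rpa1, Rpa2 and Ube2t, so they include Chek2 and Fancm, whose log2 fold changes were -0.23 and -0.28. The median GC content of these windows was 58.4% for the 29 matched genes and 59.6% for those of the deposited table. These matches are of letters and say nothing of binding.

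Rad51c, Rad51d, Xrcc2 and Xrcc3, whose products form complexes that assist strand exchange, did not share a direction. Rad51c (chromosome 11: 87376645 to 87404954) was the lowest of the 37 genes in WT and stood at 4.18, 1.71 and 2.49 RPKM in Yy1-KO, against 1.01, 0.722 and 1 RPKM in WT. These are 319, 131 and 213 recovered reads in Yy1-KO and 57, 51 and 65 in WT. The genotypes did not overlap, and the log2 fold change was 1.16 with a 95% confidence interval of -0.15 to 2.47. The products of Rad51d and Xrcc2 bind each other, and that of Xrcc3 pairs with that of Rad51c. Rad51d averaged 8.71 ± 1.12 RPKM in Yy1-KO and 11 ± 5.4 RPKM in WT, Xrcc2 averaged 4.17 ± 0.985 RPKM in Yy1-KO and 3.07 ± 1.61 RPKM in WT, and Xrcc3 averaged 4.30 ± 1.74 RPKM in Yy1-KO and 6.18 ± 0.982 RPKM in WT. Each of these overlapped between genotypes, with log2 fold changes of -0.19 for Rad51d, 0.45 for Xrcc2 and -0.54 for Xrcc3. Without WT replicate 3 that of Rad51d was -0.64, and without Yy1-KO replicate 3 that of Xrcc3 was -0.22.

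The genes of further strand exchange partners and motors had higher means in Yy1-KO and wide spread in WT. Rad54l, a motor that drives strand invasion, stood at 7.20, 9.53 and 8.00 RPKM in Yy1-KO, against 5.24, 7.11 and 2.91 RPKM in WT. Its genotypes came close without overlap, and the log2 fold change was 0.71 with a 95% confidence interval of -0.21 to 1.63. Of its exonic length 15.4% is shared with Lrrc41 on the opposite strand. Rad51ap1, whose product helps strands pair, stood at 5.03, 4.66 and 6.45 RPKM in Yy1-KO, against 2.52, 7.67 and 1.63 RPKM in WT. WT replicate 2 was the highest library for that gene, and its log2 fold change was 0.64, or 0.23 without WT replicate 3. Rad54b, a related motor, stood at 3.22, 3.34 and 9.07 RPKM in Yy1-KO, against 3.83, 4.59 and 0.0117 RPKM in WT. The last value is 1 recovered read, and without that library the log2 fold change of 1.2 was 0.13. Rad54b also shares 35.8% of its exonic length with Fsbp on the same strand.

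**Figure D3:**
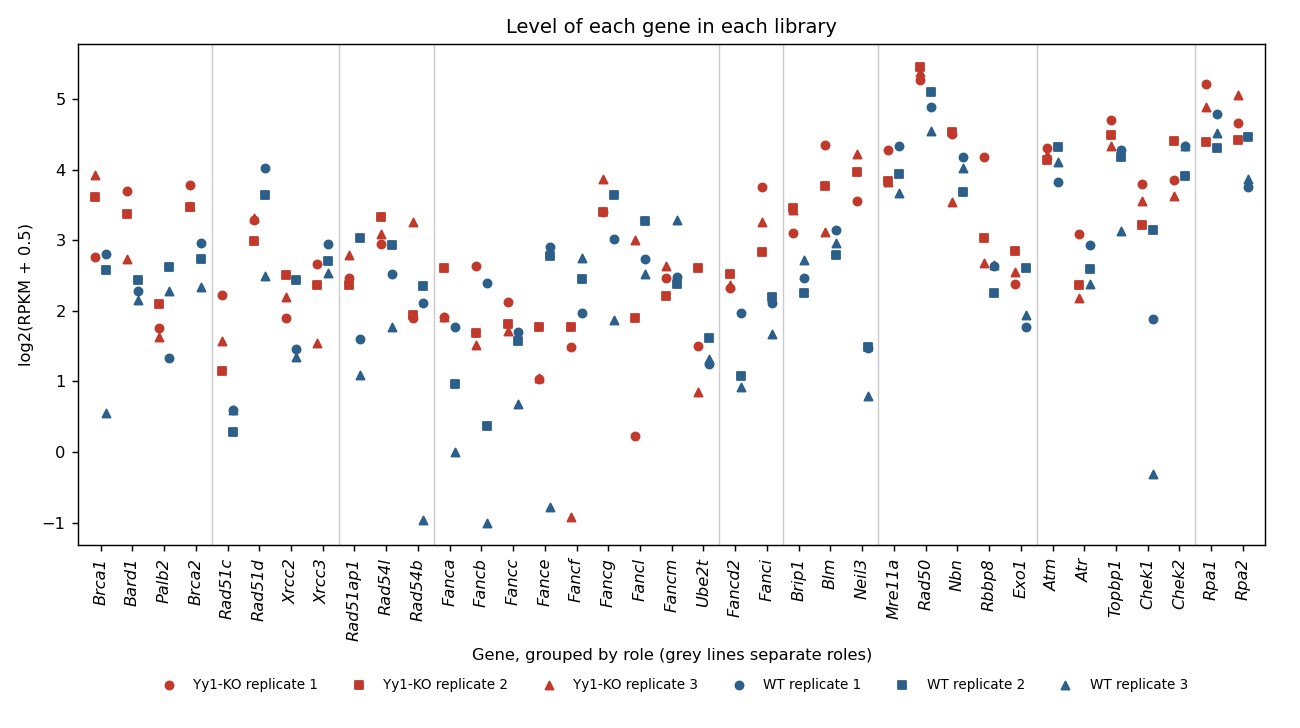
Level of each of the 37 genes in each library as log2(RPKM + 0.5) (vertical axis), with genes in order of role (horizontal axis) and grey lines between roles. Red marks left of blue marks are Yy1-KO and WT, with 3 libraries each. Blue triangles, WT replicate 3, lie far below the other libraries for Brca1, Rad54b, Fancb, Fance and Chek1.

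The Fanconi core complex, the ubiquitin ligase assembly of the pathway, had members on both sides of 0. Of its 8 genes and that of its ubiquitin-conjugating enzyme UBE2T, 5 had a log2 fold change above 0, against 51.9% of all genes tested, and 0 had an unadjusted limma p under 0.05, against 4.73% higher and 3.06% lower. With 9 genes these counts are near the background. Fanca (chromosome 8: 123268300 to 123318576) stood at 3.27, 5.58 and 3.27 RPKM in Yy1-KO, against 2.90, 1.45 and 0.502 RPKM in WT. The genotypes of Fanca did not overlap, and its log2 fold change was 1.23 with a 95% confidence interval of -0.16 to 2.63. Fancc (chromosome 13: 63285043 to 63497278) stood at 3.85, 3.01 and 2.79 RPKM in Yy1-KO, against 2.75, 2.48 and 1.10 RPKM in WT, a narrow gap without overlap and a log2 fold change of 0.57. Both have neighbours on the opposite strand that share exonic bases, Zfp276 with 10.5% of Fanca and Gm16133 with 16.4% of Fancc. Fancb, an X-linked gene whose protein sits in the catalytic module with FANCL, stood at 5.74, 2.70 and 2.37 RPKM in Yy1-KO, against 4.75, 0.791 and 0 RPKM in WT. Its 0 in WT replicate 3 allows up to 0.0680 RPKM, the value of 3 reads. The log2 fold change of Fancb was 1.36, or 0.57 without that library. Fancg averaged 11.4 ± 2.36 RPKM in Yy1-KO and 7.59 ± 4.43 RPKM in WT, with overlap and a log2 fold change of 0.71.

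Other core genes had lower means in Yy1-KO. Fancf (ENSMUSG00000092118, chromosome 7: 51860577 to 51862267) is the adaptor of the complex and a short gene. It stood at 2.31, 2.91 and 0.0303 RPKM in Yy1-KO, against 3.43, 4.99 and 6.24 RPKM in WT, which is 68, 86 and 1 recovered reads in Yy1-KO and 75, 136 and 156 in WT. The genotypes did not overlap, and the log2 fold change was -1.61 (standard error 0.77), at an unadjusted p of 0.0724 and a limma adjusted p of 0.675. Without Yy1-KO replicate 3, the library with 1 read, the log2 fold change was -0.77. Fancf shares 15% of its exonic length with Gas2 on the opposite strand. Fancl, the gene of the ligase subunit, stood at 0.665, 3.24 and 7.48 RPKM in Yy1-KO, against 6.15, 9.18 and 5.23 RPKM in WT. Yy1-KO replicate 3 lay inside the WT range of Fancl, and its log2 fold change was -1.14 with a 95% confidence interval of -2.77 to 0.50. It was -0.39 without Yy1-KO replicate 1 and -1.78 without Yy1-KO replicate 3. Of its exonic length 13.7% is shared with Vrk2 on the opposite strand.

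For Fance the sign rests on the choice of WT libraries. The gene, whose product helps bind FANCD2, stood at 1.55, 2.93 and 1.58 RPKM in Yy1-KO, against 6.98, 6.32 and 0.0850 RPKM in WT, the last being 4 recovered reads. With all libraries its log2 fold change was -0.34, and without WT replicate 3 it was -1.55 at an unadjusted p of 0.0147. Without WT replicate 1 it was 0.29, and without WT replicate 2 it was 0.22. Fancm, the DNA motor that anchors the complex, averaged 4.95 ± 0.798 RPKM in Yy1-KO and 6.35 ± 2.56 RPKM in WT, with overlap and a log2 fold change of -0.28. Ube2t averaged 3.08 ± 2.25 RPKM in Yy1-KO and 2.14 ± 0.373 RPKM in WT, also with overlap, at 0.26.

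Among the end resection genes the members of the MRE11 complex, which senses and trims broken ends, differed in level. Rad50, the highest of the 37 genes in both genotypes (ENSMUSG00000020380, chromosome 11: 53649519 to 53707319), stood at 37.9, 43.4 and 41.3 RPKM in Yy1-KO, against 29.0, 33.8 and 22.8 RPKM in WT. The genotypes did not overlap, and the log2 fold change was 0.53 (standard error 0.20), at an unadjusted p of 0.0344 and a limma adjusted p of 0.614. Its partners overlapped between genotypes. Mre11a, the nuclease gene, averaged 15.5 ± 3.01 RPKM in Yy1-KO and 15.6 ± 3.80 RPKM in WT, with a 95% confidence interval of the log2 fold change of -0.63 to 0.64. Nbn averaged 18.7 ± 6.53 RPKM in Yy1-KO and 15.3 ± 2.68 RPKM in WT, with an interval of -0.54 to 0.99. Rbbp8, the gene of CtIP, which starts resection (chromosome 18: 11633276 to 11745221), stood at 17.6, 7.72 and 5.90 RPKM in Yy1-KO, against 5.70, 4.29 and 5.77 RPKM in WT. The gap of Rbbp8 was narrow, 1 library stood well above the rest, and its log2 fold change of 0.78 was 0.35 without that library, Yy1-KO replicate 1. Exo1, the exonuclease of long resection, averaged 5.58 ± 1.03 RPKM in Yy1-KO and 3.95 ± 1.45 RPKM in WT, with overlap and a log2 fold change of 0.49.

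In the damage checkpoint, the ATR kinase answers single-stranded DNA through CHK1, with TOPBP1 as its activator, and the ATM kinase answers double-strand breaks through CHK2. Chek1 (ENSMUSG00000032113, chromosome 9: 36708482 to 36727065) stood at 13.4, 8.76 and 11.3 RPKM in Yy1-KO, against 3.21, 8.37 and 0.306 RPKM in WT. No library overlapped, though WT replicate 2 came close to Yy1-KO replicate 2 and WT replicate 3 had 21 recovered reads. The log2 fold change of Chek1 was 1.95 (standard error 0.81), at an unadjusted p of 0.0446 and a limma adjusted p of 0.631, and it was 1.0 without WT replicate 3. Topbp1 (chromosome 9: 103305215 to 103350428) stood at 25.6, 21.9 and 19.7 RPKM in Yy1-KO, against 18.9, 17.6 and 8.23 RPKM in WT. It too did not overlap, and its log2 fold change of 0.65 was 0.29 without WT replicate 3. The kinases themselves and Chek2 had overlapping libraries. Atm averaged 18.1 ± 1.05 RPKM in Yy1-KO and 16.7 ± 2.91 RPKM in WT, with an interval of the log2 fold change of -0.39 to 0.65. Atr averaged 5.56 ± 2.13 RPKM in Yy1-KO and 5.76 ± 1.23 RPKM in WT, with -1.0 to 0.83. Chek2 averaged 15.5 ± 4.64 RPKM in Yy1-KO and 18 ± 3.04 RPKM in WT, with -0.89 to 0.43.

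Replication protein A, which coats single-stranded DNA in both replication and repair, was represented by its large and middle subunits. Rpa2 (ENSMUSG00000028884, chromosome 4: 132768332 to 132778752) stood at 24.9, 20.9 and 32.8 RPKM in Yy1-KO, against 13, 21.6 and 14.1 RPKM in WT. WT replicate 2 lay above Yy1-KO replicate 2, and the log2 fold change was 0.69 (standard error 0.28), at an unadjusted p of 0.0423 and a limma adjusted p of 0.629. Rpa1 averaged 28.8 ± 8.08 RPKM in Yy1-KO and 23 ± 4.02 RPKM in WT, with overlap and a log2 fold change of 0.30, which was 0.11 without Yy1-KO replicate 1 and 0.52 without Yy1-KO replicate 2.

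By level, the 37 genes spanned 1.75 to 40.9 RPKM in Yy1-KO means and 0.910 to 28.5 RPKM in WT means. The median over the 37 was 8.71 RPKM in Yy1-KO and 5.09 RPKM in WT, against 9.02 and 8.95 RPKM for all genes tested. In Yy1-KO 15 of the genes averaged at least 10 RPKM, and in WT 9 did: Rad50, Rpa1, Chek2, Atm, Rpa2, Mre11a, Nbn, Topbp1 and Rad51d. Relative to its mean, the spread over libraries was wider in WT for 24 of the 37 genes, with a median coefficient of variation of 23.6% in Yy1-KO and 30.2% in WT. The share of all genes tested with wider spread in WT was not computed. Without WT replicate 3 the log2 fold change shrank by over 1.5 times for 13 of the 37 genes, a share not computed for all genes tested. Beside those already given, these were Palb2 at -0.15, Xrcc2 at 0.25, Rad54l at 0.39, Fanca at 0.78, Fancc at 0.25, Fancg at 0.22 and Fancm at 0.0074. Over fits without 1 library, small differences moved as well: Nbn ranged from 0.06 to 0.56, Exo1 from 0.31 to 0.74, Chek2 from -0.45 to -0.06 and Atm from 0.0012 to 0.25.

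In other genes of the same pathways, 35 of 37 listed names had a tested row, and 23 lay above 0, against 51.9% of all genes tested. Their median log2 fold change was 0.23, or 0.11 without WT replicate 3. At an unadjusted limma p under 0.05, 5 were higher, against a background of 4.73%, and 1 was lower, against 3.06%. Without WT replicate 3 these counts were 3, against 5.32%, and 0, against 3.19%, and Gen1, Parpbp, Rfwd3 and Helq missed that limit. Rpa3 was among the 3, at 1.26 with an unadjusted limma p of 0.00374. With all libraries Rpa3 was at 0.49, and WT replicate 3 stood at 32.5 RPKM, against 6.54 and 5.85 RPKM in WT replicates 1 and 2. Usp1, the enzyme that takes ubiquitin off FANCD2, averaged 62.2 ± 4.52 RPKM in Yy1-KO and 44.4 ± 6.84 RPKM in WT, at 0.49. Also higher were Fignl1 at 0.997, Parpbp at 1.16, Rfwd3 at 0.75 and Gen1, a nuclease gene for Holliday junctions, at 1.79. The helicase gene Helq was lower, at 2.38 ± 1.59 RPKM in Yy1-KO and 5.61 ± 0.813 RPKM in WT, with a log2 fold change of -1.22. Of 23 further checkpoint and damage signalling genes, 18 lay above 0, against 51.9% of all genes tested. Their median was 0.39, or 0.20 without WT replicate 3. At an unadjusted limma p under 0.05, 3 were higher, against 4.73%, and 0 were lower, against 3.06%. The 3 were Clspn, whose product helps ATR activate CHK1, at 1.2, Tipin at 0.81 and Babam1 at 0.85. Without WT replicate 3, 2 were higher, against 5.32%, and Clspn missed the limit. None of these genes passed the limma adjusted threshold, where their smallest adjusted p was 0.429.

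End joining genes, the rival route of break repair, centred near 0, with a median of 0.06 (log2) over the 10 tested, with 0 higher (background 4.73%) and 1 lower (3.06%) at an unadjusted limma p under 0.05, counts near the background. That gene, Xrcc4, singled out after its values were seen, stood at 1.53, 2.47 and 3.45 RPKM in Yy1-KO, against 7.95, 8.07 and 10.3 RPKM in WT. The genotypes did not overlap for Xrcc4, and its log2 fold change was -1.68 with a limma adjusted p of 0.429. Whether end joining and recombination genes differ in response was not tested.

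**Figure D4:**
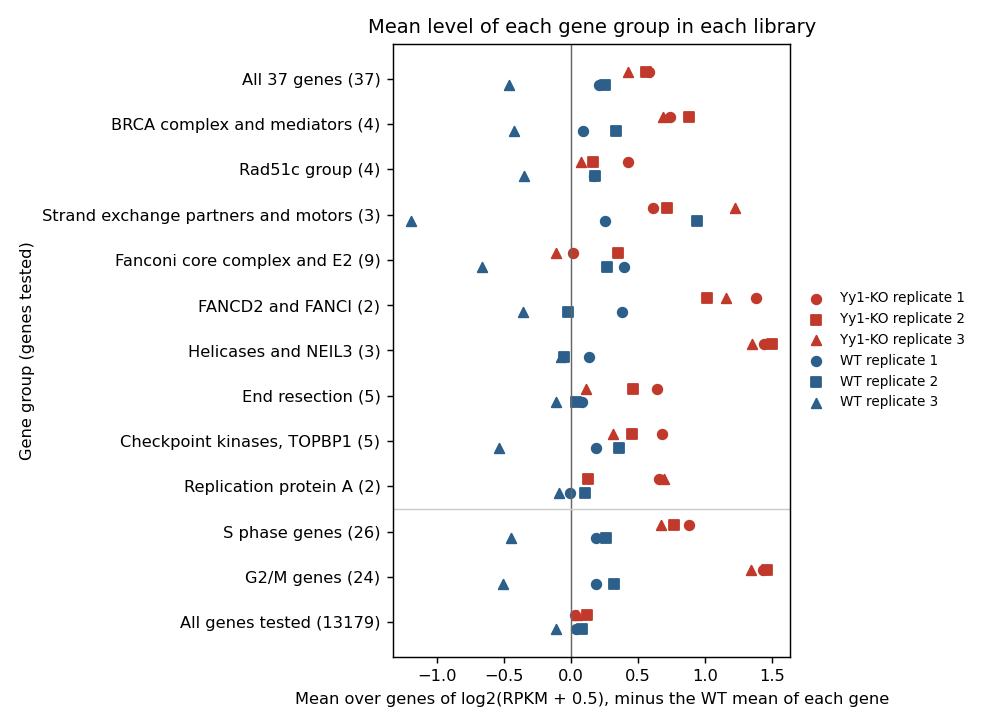
Mean over the genes of a group of log2(RPKM + 0.5) after subtracting each gene's WT mean (horizontal axis), for the 37 genes, their roles, the cell cycle lists and all genes tested (vertical axis, with gene numbers). Red marks are Yy1-KO and blue marks WT, 3 libraries each. WT replicate 3, the blue triangle, is lowest of the WT libraries in every group shown, at -0.46 over the 37 genes.

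Cell cycle genes also lay higher in Yy1-KO, with 7 of 26 S phase genes and 22 of 24 G2/M genes at an unadjusted limma p under 0.05, against the 4.73% of all genes. Without WT replicate 3 these counts were 6 of 26 and 21 of 24, against 5.32%. The median log2 fold change was 0.68 for S phase genes and 1.41 for G2/M genes, or 0.43 and 1.16 without WT replicate 3. Relative to the WT mean of each gene, the 37 genes averaged 0.58, 0.56 and 0.42 log2 in Yy1-KO replicates 1 to 3, against 0.21, 0.25 and -0.46 in WT replicates 1 to 3. The 26 S phase genes averaged 0.88, 0.77 and 0.67 in Yy1-KO, against 0.19, 0.26 and -0.45 in WT, and all 26 lay above 0. The 24 G2/M genes averaged 1.43, 1.47 and 1.34 in Yy1-KO, against 0.19, 0.32 and -0.51 in WT. All 24 lay above 0 as well, where 51.9% of all genes tested did. Over all genes tested the means were 0.03, 0.12 and 0.05 in Yy1-KO, against 0.03, 0.08 and -0.11 in WT. The order of the libraries was thus alike in WT across these lists, and the part that cell cycle state or WT replicate 3 plays in the result on the 37 genes was not tested. In bulk samples a larger share of dividing cells and more RNA of these genes per cell cannot be told apart.

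The roles had unlike values in this measure. Brip1, Blm and Neil3 averaged 1.44, 1.5 and 1.35 in Yy1-KO, against 0.13, -0.06 and -0.08 in WT, and Fancd2 with Fanci averaged 1.38, 1.02 and 1.15 in Yy1-KO, against 0.38, -0.02 and -0.36 in WT. The core complex with Ube2t averaged 0.02, 0.35 and -0.11 in Yy1-KO, against 0.40, 0.27 and -0.67 in WT, so those libraries overlapped. Rad51c, Rad51d, Xrcc2 and Xrcc3 overlapped as well, at 0.43, 0.16 and 0.07 in Yy1-KO, against 0.17, 0.18 and -0.35 in WT. Differences between roles were not tested.

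Markers of other blood cells that could enter the sort ranged from absent to well above the median level of all genes tested. Megakaryocyte markers summed to 62.5 to 118 RPKM in Yy1-KO and 35.6 to 50.4 RPKM in WT over 8 of 10 genes in the table (0 to 2 of them at 0 in a library), and erythroid markers to 72.0 to 154 RPKM in Yy1-KO and 51.9 to 62.8 RPKM in WT over 8 of 12 (likewise 0 to 2), so both lists were higher in each Yy1-KO library. Their part in the result on the 37 genes was not tested. Granulocyte markers summed to 35.2 to 299 RPKM in Yy1-KO and 17.7 to 172 RPKM in WT, with overlap. The highest sum of each genotype was in replicate 2, where S100a9 stood at 149 RPKM in Yy1-KO and 86.4 RPKM in WT. The part of granulocyte markers in the result was not tested. Monocyte and macrophage markers summed to 69.6 to 106 RPKM in Yy1-KO and 80.1 to 121 RPKM in WT, with overlap. The monocyte and macrophage sum was mostly Lyz2, at 76.5 ± 16.2 RPKM in Yy1-KO and 98.3 ± 21 RPKM in WT. Cd68 lay the other way, at 2.06, 5.82 and 9.49 RPKM in Yy1-KO, against 0.0616, 2.72 and 0 RPKM in WT, with overlap, a log2 fold change of 2.49, an unadjusted p of 0.0257 and a limma adjusted p of 0.589. Its part in the result on the 37 genes was not tested. Of the B cell list only Cd79b was in the table, at 14.9 ± 6.14 RPKM in Yy1-KO and 20.8 ± 7.70 RPKM in WT. Of the T and NK cell list 3 of 8 were, led by Nkg7 at 6.55 ± 2.39 RPKM in Yy1-KO and 9.55 ± 5.32 RPKM in WT.

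In the authors' deposited table, 15 of the 37 genes were higher at an unadjusted p under 0.05, against 4.61% of the genes there, and 0 were lower. The share of all genes there that were lower was not computed. All 8 genes higher in limma were among the 15, with Brca1, Rad54l, Rad54b, Fanca, Fancd2, Blm and Topbp1 besides. The sign in the authors' deposited table was that of the limma fit for 36 of the 37, Fance being the exception at 0.27. Brca2 had the smallest p there after Neil3, at a log2 fold change of 0.96, a p of 0.000699 and an adjusted p of 0.147.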

How the data were processed

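RNA of sorted cells was sequenced on an Illumina HiSeq from libraries of the NuGen Ovation RNA-Seq System V2, which amplifies RNA, per the labels' protocols. The submitters' processing notes name mm10, Subread, featureCounts, edgeR and limma as what the authors used, and give neither versions nor settings. The deposited values behave as RPKM, with no unit in the header: multiplied by GENCODE M21 exonic length, 71.8% of genes gave whole reads in all 6 libraries (tolerance 0.02 reads), and other recovered reads are estimates. The other columns hold the authors' log2 fold change, p-value and adjusted p-value, per the file headers. Every column of sample values was used.

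The 13179 genes that reached 1 RPKM in 3 or more libraries were tested on log2(RPKM + 0.5) with limma 3.58.1 in R 4.3.3, with a variance trend and Benjamini-Hochberg adjustment at 0.05. The scripts were tested on simulated data. Limma-voom took recovered reads of 13114 genes, with library sizes implied by the RPKM step. Those sizes were smaller than the summed recovered reads in every library, and voom was not run with other sizes. Counting error grows as reads become few, so reads are given for thin genes, and the limit on a 0 covers counting error only. Values in every library are given for genes at an unadjusted p under 0.05, without overlap or called by the authors, and for some others of the 37 named for their role. Of the other pathway lists, genes at an unadjusted p under 0.05 are named. The 37 genes and all lists and tests were chosen with earlier results of these data known. Replicate numbers are shared by the genotypes but do not mark a pairing in the labels. An item of the pathway is not reported here.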

Additional observations from a re-analysis of the deposited data

How the results depend on the processing

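Settings other than those named here left the counts within 1.5 times. Limma-voom on recovered reads called 8 genes over the whole table, in place of 0, and found 14 of the 37 genes higher at an unadjusted p under 0.05 in place of 8. These 14 hold all 8 of the limma fit. Without WT replicate 3, in an analysis chosen after seeing the data, voom called 14 genes, found 8 of the 37 higher and 1 lower, and gave a median of 0.29. The shares of all genes higher and lower were not computed for that voom fit. Leaving out 1 library in limma gave 0 to 1 calls over all genes, 3 to 9 of the 37 higher, 0 to 1 lower and a median log2 fold change of 0.29 to 0.74. Without both Yy1-KO replicate 1 and WT replicate 3, also chosen afterwards, there were 3 higher and 1 lower, with a median of 0.30. The cause of these shifts was not tested.

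With a replicate block in limma, which pairs libraries by number, 7 of the 37 were higher at an unadjusted p under 0.05. The share of all genes was not computed for that fit, and 0 genes passed after adjustment. Deviations of same-numbered libraries correlated at 0.02, 0.06 and 0.05 across genes for replicates 1 to 3, against -0.08 to 0.04 for unlike-numbered libraries. These values rest on deviations from means of 3 libraries and cannot decide whether libraries were paired. The numbers were not treated as pairs because the labels do not mark a pairing.

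Of the 37 log2 fold changes, 30 kept their sign in every setting and 7 did not. Over limma fits that leave libraries out, Palb2 ranged from -0.62 to 0.02, Rad51d from -0.68 to 0.13, Fance from -1.55 to 0.29, Fancm from -0.45 to 0.0074, Ube2t from -0.22 to 0.66, Mre11a from -0.30 to 0.18 and Atr from -0.48 to 0.10. Palb2 was 0.022 without WT replicate 2, Rad51d 0.13 without WT replicate 1, and Ube2t -0.22 without Yy1-KO replicate 2. Fance was 0.27 in voom, 0.29 without WT replicate 1 and 0.22 without WT replicate 2. Fancm was 0.0074 without WT replicate 3, and 0.019 there in voom. Mre11a was -0.013 under quantile normalization, -0.14 without Yy1-KO replicate 1, -0.02 without WT replicate 2, -0.15 without WT replicate 3, -0.30 without both and -0.15 without WT replicate 3 in voom. Atr was 0.0025 without Yy1-KO replicate 2, 0.10 without Yy1-KO replicate 3 and 0.06 without WT replicate 1. With 3 libraries per genotype, a gene that misses a threshold is not shown to be unchanged, and genes of few recovered reads, such as Fancf, Fancb and Rad51c, carry the widest counting error.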
